A study of Homo sapiens with 16 samples.

Results

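The transcripts described here encode 10 glycolytic enzymes, HK2, GPI, PFKP, ALDOA, TPI1, GAPDH, PGK1, PGAM1, ENO1 and LDHA, out of 32080 gene symbols on the array. They were chosen by the fall of GAPDH on the MM.1S arrays treated with both inhibitors, so that contrast is given below as a description only. A member was any non-control probe carrying one of these symbols, which gave 15 probes, and a gene is represented by its probe of highest average level unless another is named. In the study 2 established human multiple myeloma cell lines, RPMI-8226 and MM.1S, were kept for 6 days with GSK126, which inhibits EZH2, at 1 µM, with UNC0638, which inhibits G9a, at 1 µM, with 1 µM of each agent (the combination), or with the solvent DMSO. EZH2 and G9a methylate histone H3 at H3K27 and H3K9, respectively, and the study asked how blocking them, alone or together, alters gene expression. Each of the 8 groups had 2 biological replicates, and total RNA from each was labelled with Cy3 and hybridised to 1 one-colour oligonucleotide array. Every group of a line was grown in the same serum-supplemented medium, and the lines stand for tumour cells in culture, without the bone marrow cells that surround them in a patient.

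Glycolysis splits glucose into pyruvate in the cytosol and yields ATP and NADH, and lactate dehydrogenase then turns pyruvate into lactate and restores NAD+. Proliferating tumour cells, myeloma cells among them, draw heavily on this route even when oxygen is present. The transcription factors HIF1 and MYC are known to bind promoters of many of these enzymes, and several of the transcripts, GAPDH above all, are used as loading references because they are abundant in nearly every cell.

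The upstream sequences of 3 members are printed as examples, picked because these windows hold letters that HIF1 or MYC are known to recognise. Whether such letters bear on the enzymes' levels was not tested. RefSeq sequence of GRCh38.p14 was searched on both strands over the 250 bases before each annotated transcript start. The letters sought were ACGTG, 1 form of the core of a hypoxia response element, and CACGTG, the E-box bound by MYC. CACGTG contains ACGTG on both strands, and other forms of the core were not searched. Letters of ACGTG or of its complement CACGT are in capitals and each window is written 5′ to 3′ on the strand of the gene. LDHA is shown at chr11:18394313-18394562, GAPDH at chr12:6535014-6535263 and PGK1 at chrX:78103998-78104247, all on the plus strand.
LDHA: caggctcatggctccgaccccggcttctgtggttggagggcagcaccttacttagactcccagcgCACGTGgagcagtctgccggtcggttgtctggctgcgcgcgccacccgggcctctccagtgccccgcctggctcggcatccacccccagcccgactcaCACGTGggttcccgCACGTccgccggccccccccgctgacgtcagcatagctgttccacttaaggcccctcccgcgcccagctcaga
GAPDH: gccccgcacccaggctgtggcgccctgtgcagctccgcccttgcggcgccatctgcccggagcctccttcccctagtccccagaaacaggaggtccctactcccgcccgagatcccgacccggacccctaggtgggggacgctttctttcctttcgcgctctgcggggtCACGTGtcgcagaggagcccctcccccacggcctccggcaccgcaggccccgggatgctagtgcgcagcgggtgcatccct
PGK1: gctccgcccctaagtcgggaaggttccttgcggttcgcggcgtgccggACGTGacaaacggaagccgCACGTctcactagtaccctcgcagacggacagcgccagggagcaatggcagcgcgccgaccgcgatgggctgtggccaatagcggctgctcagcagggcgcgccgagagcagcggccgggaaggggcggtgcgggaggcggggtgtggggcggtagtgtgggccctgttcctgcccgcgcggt
The LDHA window shown held 2 copies of CACGTG and 1 further ACGTG core. Another LDHA window, at chr11:18396101-18396350, held neither. GAPDH held 1 CACGTG, and PGK1 held none but 2 ACGTG cores. Of the 10 members, 8 had an ACGTG core in at least 1 of their 18 windows, against 21.7% of 27305 symbols, and 4 had CACGTG, against 7.73%. Counted by window, 11 of the 18 held an ACGTG core, against 18.5% of 35116 windows, and 4 held CACGTG, against 6.34%. ENO1 had neither ACGTG nor CACGTG in its single window, on the minus strand at chr1:8878687-8878936. A match describes letters in a window, and neither a match nor its absence shows whether a factor binds there.

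Each array carried 62976 spots, of which 58717 were not controls and represented 50599 probes. Between 46.5% and 52.8% of probes on an array were well above background, no spot was saturated, and the brightest member spot averaged 62200 intensity units, in MM.1S DMSO arrays. A probe was kept in a line when some group there had it well above background in each replicate, which left 23196 probes in RPMI-8226 and 25100 in MM.1S. All 10 members were kept in both lines, 14 of their 15 probes in RPMI-8226 and 13 in MM.1S. The arrays of a line shared a slide, so the line and the slide cannot be told apart. Each treatment occupied its own column of a slide and each replicate number its own row. Within a line, treatment and column therefore cannot be told apart. Levels below are log2 intensities minus the array's 75th percentile, and because a probe's brightness depends on its sequence, levels are compared between groups and never between genes.

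Under DMSO 7 of the 10 transcripts had a lower level in MM.1S than in RPMI-8226, with no overlap of the arrays, as did 41% of the 21367 probes kept in both lines. HK2 and PGAM1 overlapped, and GPI was slightly higher in MM.1S. HK2, hexokinase, which traps glucose in the cell by phosphorylation, stood at 2.90 and 2.80 on the RPMI-8226 DMSO arrays and at 2.73 and 3.0 on the MM.1S DMSO arrays. GPI, which converts glucose 6-phosphate to fructose 6-phosphate, stood at 6.42 and 6.32 in RPMI-8226 and at 6.56 and 6.44 in MM.1S. PFKP, the platelet-type isoform of phosphofructokinase, stood at 4.26 and 4.54 in RPMI-8226 and at -3.60 and -3.80 in MM.1S. This was the widest gap between the lines among the members, with mean intensities of 6621 and 33.5, and the PFKP signal in MM.1S was still marked well above background on every array. A second PFKP probe was at 4124 intensity units in RPMI-8226 DMSO arrays and was not well above background on any MM.1S array. ENO1, the enolase that makes phosphoenolpyruvate, stood at 6.89 and 6.60 in RPMI-8226 and at 4.74 and 4.66 in MM.1S. PGK1, the first ATP-forming enzyme of the route, was at 7.37 and 7.14 against 6.48 and 6.44, and ALDOA, the aldolase, at 6.67 and 6.32 against 5.72 and 5.82. For these 4 genes the distance between the lines was wider than that between replicate arrays. GAPDH, at 7.53 and 7.35 against 7.16 and 7.17, TPI1 and LDHA were also lower in MM.1S, LDHA by little, since its lower RPMI-8226 array, at 6.57, was close to the MM.1S arrays at 6.55 and 6.54. These are levels of 1 slide against another and were not tested. In RNA from whole cultures, fewer cells carrying a transcript and less of it in each cell cannot be told apart.

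**Figure D1:**
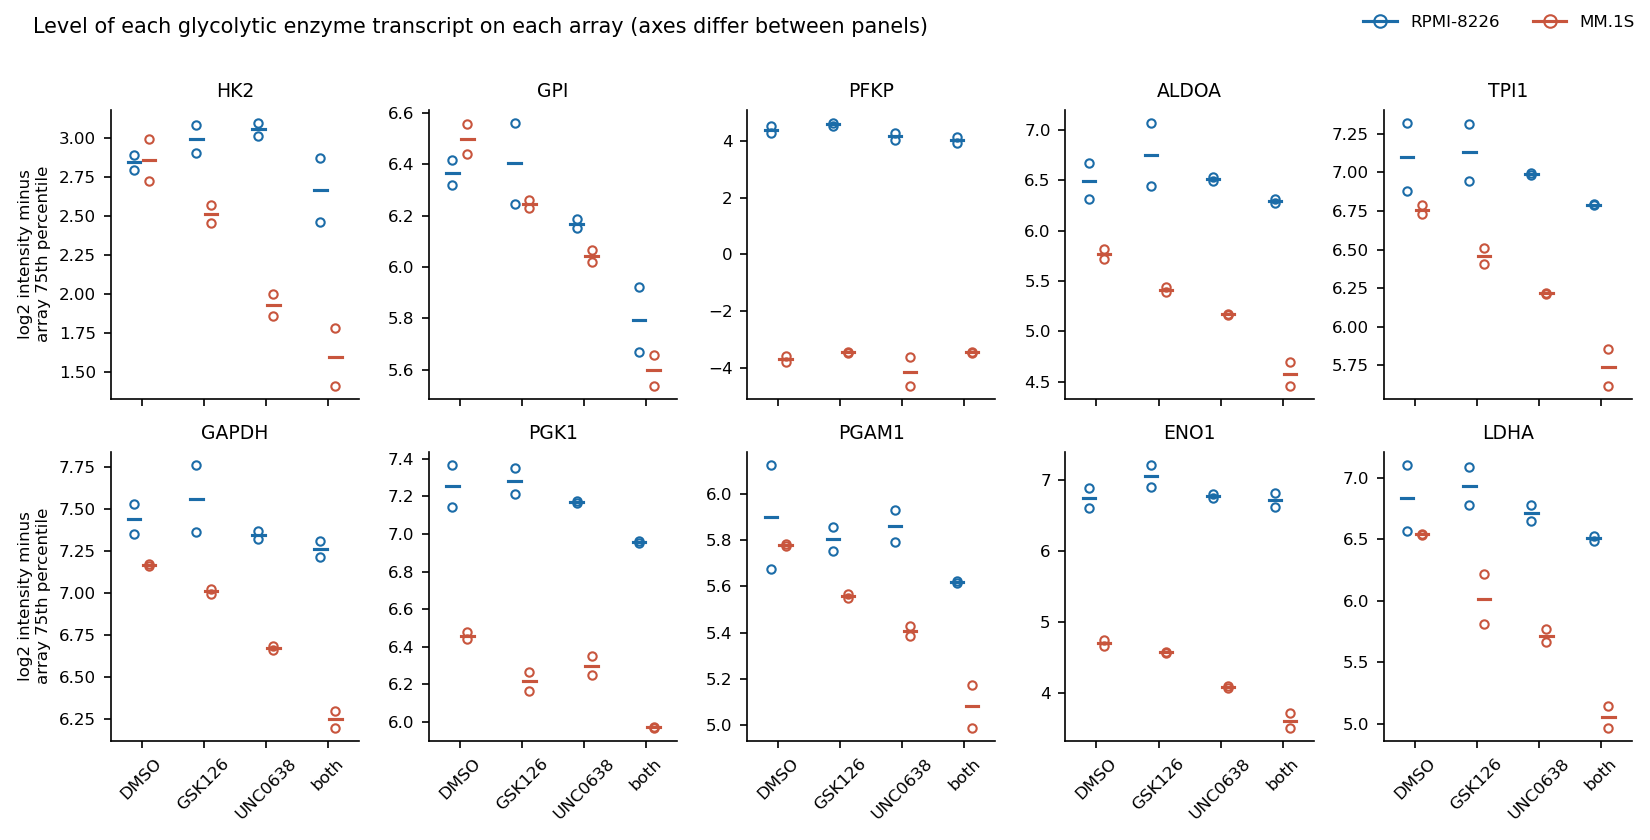
Level of each of the 10 transcripts on each of the 16 arrays, as log2 intensity minus the array's 75th percentile (vertical axis, its range differing between panels), for DMSO, GSK126, UNC0638 and both inhibitors; circles are arrays and bars group means, blue for RPMI-8226 and red for MM.1S. In MM.1S 9 of the 10 panels step down from DMSO to both inhibitors, and PFKP lies near the floor there.

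In RPMI-8226, limma called none of the 10 enzymes changed with the combination. The differences from DMSO ran from -0.57 to -0.03 on the log2 scale, all below 0, with a median of -0.29 against -0.11 over all 16060 genes tested. Of all probes, 12.6% were called in either direction and 5.45% were called lower, so nothing is read from 0 calls among 10 enzymes. With the replicate number as a block the share called lower was 10.8%, and still no enzyme was called. At an unadjusted p under 0.05 there was 1 member, GPI, against 31.8% of all probes. Without DMSO replicate 1 the members' median was -0.09 and 1 member lay above 0, and under 5 of the 8 other scalings the median lay between -0.03 and 0.01. GPI stood at 6.42 and 6.32 with DMSO and at 5.67 and 5.92 with the combination. The groups did not overlap, and the difference was -0.57 ± 0.17 (SE), 1.49-fold lower, with a 95% interval from -0.97 to -0.17 and a limma adjusted p of 0.0715.

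The enzymes on either side of GPI in the pathway lay closer to DMSO in RPMI-8226. PFKP, which commits sugar to the route, stood at 4.26 and 4.54 with DMSO and at 4.14 and 3.93 with the combination, a difference of -0.36 ± 0.17 (limma adjusted p = 0.2). HK2 stood at 2.90 and 2.80 with DMSO and at 2.46 and 2.87 with the combination, so the groups overlapped, and the difference was -0.18 ± 0.18 (limma adjusted p = 0.522). ALDOA, which cuts the sugar into triose phosphates, differed by -0.20 ± 0.23 (limma adjusted p = 0.594), a 1.15-fold difference with an interval from -0.76 to 0.36.

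Among the enzymes that handle triose phosphates, none passed the threshold in RPMI-8226. GAPDH, which oxidises glyceraldehyde 3-phosphate, stood at 7.53 and 7.35 with DMSO and at 7.31 and 7.21 with the combination. Both treated arrays lay just below both DMSO arrays, and the difference was -0.18 ± 0.17, 1.13-fold lower, with an interval from -0.59 to 0.24 (limma adjusted p = 0.517). TPI1, which interconverts the triose phosphates, differed by -0.31 ± 0.20 (limma adjusted p = 0.320). PGK1 stood at 6.96 and 6.95 with the combination, below both of its DMSO arrays, and differed by -0.30 ± 0.14 (limma adjusted p = 0.2). PGAM1, the phosphoglycerate mutase, differed by -0.28 ± 0.18 (limma adjusted p = 0.321), and ENO1 by -0.03 ± 0.18 (limma adjusted p = 0.933). LDHA stood at 7.10 and 6.57 with DMSO and at 6.49 and 6.53 with the combination. Its DMSO arrays were spread more widely than the 2 treated arrays, and the difference was -0.33 ± 0.21, 1.25-fold lower, with an interval from -0.84 to 0.18 (limma adjusted p = 0.330). For 7 of the 10 enzymes both combination arrays lay below both DMSO arrays, where 40.2% of all probes did so.

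The second probes of a member lay on the same side of 0 in RPMI-8226. The second PFKP probe differed by -0.25 (limma adjusted p = 0.262), the second TPI1 probe by -0.41 (limma adjusted p = 0.125) and the second PGAM1 probe by -0.44 (limma adjusted p = 0.181). A second LDHA probe, whose design position is on chromosome 9 from 14921817 to 14921876 and thus outside the LDHA locus on chromosome 11, differed by -0.31 (limma adjusted p = 0.341). Whether that probe reports the LDHA transcript was not tested. A second HK2 probe, on chromosome 2 from 75118359 to 75118418, was not kept in either line.

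Either agent alone left the enzymes near DMSO in RPMI-8226. With GSK126 limma called 0 of the 10, where 0.599% of all probes were called in either direction, and 0 had an unadjusted p under 0.05, where 2488 of the 23196 probes did. The differences ran from -0.10 for PGAM1 to 0.32 for ENO1 with a median of 0.11, and ENO1, at 7.22 and 6.91 with GSK126 against 6.89 and 6.60 with DMSO, had the lowest limma adjusted p, 0.578. With UNC0638 limma also called 0 enzymes, where 0.638% of probes were called, and 0 had an unadjusted p under 0.05, where 9.89% did. The UNC0638 differences ran from -0.23 for PFKP to 0.21 for HK2, with a median of -0.09 and limma adjusted p-values between 0.772 and 0.988.

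The combination was also set against each agent at the same dose and time in RPMI-8226. Against GSK126, 0 enzymes were called, where 2.57% of probes were called in either direction, and 2 had an unadjusted p under 0.05, where 18.1% of probes did. GPI stood at 5.67 and 5.92 with the combination and at 6.56 and 6.25 with GSK126, a difference of -0.61 (limma adjusted p = 0.137), and PFKP differed by -0.54 (limma adjusted p = 0.179). For all 10 enzymes both combination arrays lay below both GSK126 arrays, as they did for 29.3% of all probes, and the median difference was -0.34. Against UNC0638, 0 were called, where 3.38% of probes were called in either direction, and 0 had an unadjusted p under 0.05, where 18.9% of probes did. The differences ran from -0.39 for HK2 to -0.05 for ENO1 with limma adjusted p-values between 0.289 and 0.897, and for 8 enzymes both combination arrays lay below both UNC0638 arrays, as for 36.7% of probes.

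In MM.1S, the line on which the members were chosen, 9 of the 10 transcripts were lower with the combination than with DMSO, with log2 differences from -1.48 to -0.49, and PFKP was not. The values in this contrast are given as a description with no test. LDHA stood at 6.55 and 6.54 with DMSO and at 5.15 and 4.97 with the combination, a difference of -1.48 ± 0.15, 2.79-fold lower. HK2 stood at 2.73 and 3.0 with DMSO and at 1.42 and 1.79 with the combination, 2.40-fold lower. These were the widest differences among the members, at the entry of glucose into the route and at the exit of pyruvate to lactate.

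The steps between were 1.40-fold to 2.28-fold lower in MM.1S, apart from PFKP. ALDOA stood at 5.72 and 5.82 with DMSO and at 4.70 and 4.46 with the combination, 2.28-fold lower. ENO1 stood at 4.74 and 4.66 with DMSO and at 3.71 and 3.51 with the combination, 2.13-fold lower. GAPDH, the gene the choice rests on, stood at 7.16 and 7.17 with DMSO and at 6.30 and 6.20 with the combination, a difference of -0.91 ± 0.08, 1.88-fold lower. In these 3 genes the groups did not overlap, and the replicate arrays lay far closer to each other than to the other group. TPI1 was 2.03-fold lower, GPI 1.87-fold and PGAM1 1.62-fold. PGK1 stood at 6.48 and 6.44 with DMSO and at 5.97 and 5.97 with the combination, 1.40-fold lower. PFKP stood at -3.60 and -3.80 with DMSO and at -3.44 and -3.50 with the combination, a difference of 0.23 ± 0.30 at a signal near background.

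For 9 members both combination arrays lay below both DMSO arrays in MM.1S, as did 46% of all probes, and limma called the same number lower where 31.5% of all probes were called lower. Nothing is read from these counts, since the choice of members used this contrast. The median over the members was -0.97 against -0.11 over all genes. Second probes lay on the same side, at -1.65 for LDHA, -1.06 for PGAM1 and -1.06 for TPI1. The PGAM1 probes disagreed in size, at -0.70 for the first and -1.06 for the second.

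**Figure D2:**
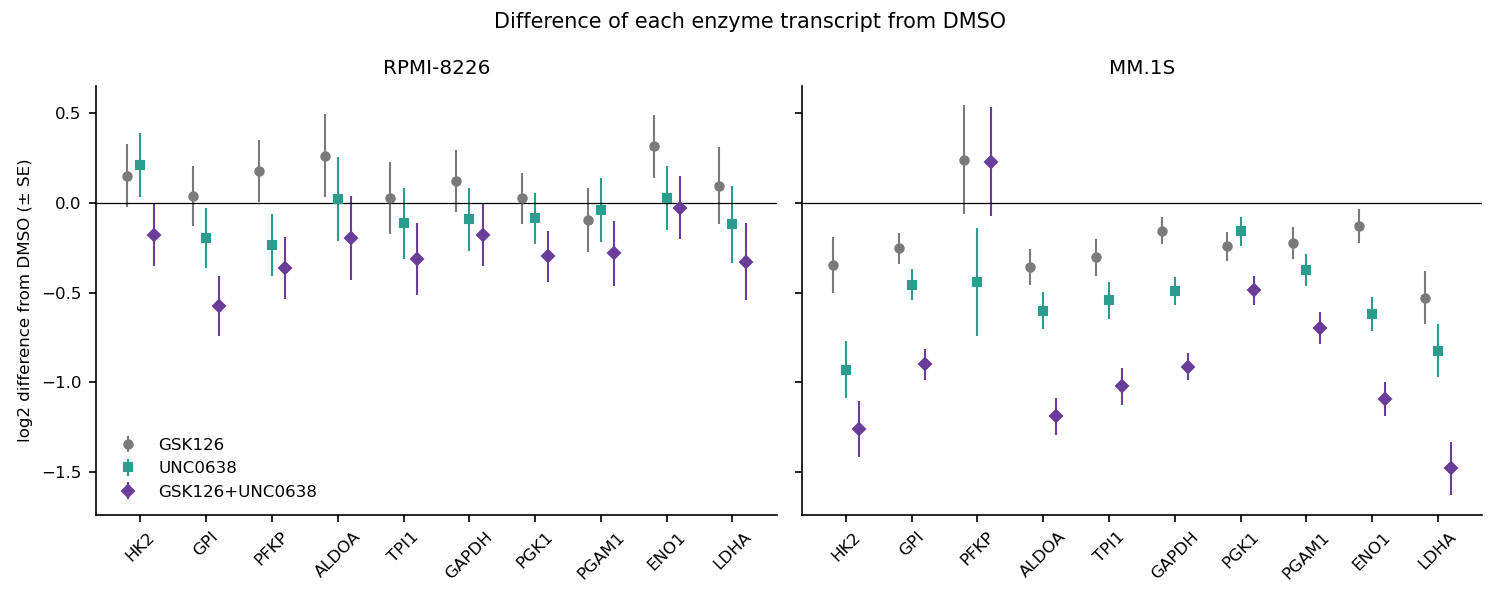
Log2 difference of each enzyme transcript from DMSO (vertical axis) with GSK126 (circles), UNC0638 (squares) and both inhibitors (diamonds) in each line, enzymes in pathway order on the horizontal axis; bars are ± 1 standard error from the fit over the 8 arrays of a line. In RPMI-8226 all values lie between -0.57 and 0.32, while in MM.1S the combination values of 9 enzymes lie between -1.48 and -0.49.

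Each agent alone gave smaller differences in MM.1S, in comparisons that share the DMSO arrays with the combination. With UNC0638 the differences ran from -0.93 for HK2 to -0.16 for PGK1, with a median of -0.52 against -0.06 over all genes. limma called 8 enzymes lower, where 16.7% of all probes were called lower. Without DMSO replicate 1 or 2 or UNC0638 replicate 1 or 2, it called 4, 3, 5 and 3, respectively. With spike-in scaling it called 1 lower, where 3.21% of all probes were called lower. With the 99th percentile it called 2 (3.86% of probes lower) and with level bins 2 (10.8%). With reference genes it called 1 higher, where 54% of all probes were called higher, and the members' median there was 0.01. Since the choice used these DMSO arrays, the counts are a description. For 9 both UNC0638 arrays lay below both DMSO arrays, where 40.6% of probes did so. LDHA stood at 5.77 and 5.66 with UNC0638, ENO1 at 4.07 and 4.09, and GAPDH at 6.69 and 6.66. Each of these was between its DMSO and its combination level on every array. With GSK126 the differences ran from -0.53 for LDHA to 0.24 for PFKP, with a median of -0.25 against -0.05 over all genes. limma called 0 enzymes, where 2.42% of probes were called lower, and 6 had an unadjusted p under 0.05, where 28.1% of probes did. For 9 both GSK126 arrays lay below both DMSO arrays, where 36.5% of probes did so. LDHA stood at 5.81 and 6.21 with GSK126, and GAPDH at 7.02 and 6.99. The order of the group means in MM.1S was DMSO, GSK126, UNC0638 and the combination, from high to low, for 8 of the 10 enzymes. This was also the order of the slide columns, from which treatment cannot be told apart. In PGK1 the UNC0638 arrays, at 6.25 and 6.35, overlapped the GSK126 arrays, at 6.17 and 6.27, and in PFKP UNC0638 was the lowest group, at -3.64 and -4.64.

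The direct comparison of UNC0638 with GSK126 in MM.1S took its differences from arrays outside the contrast that the choice rests on. The members were still chosen with earlier results of these data known, so the p-values are not fully independent of that choice. The spread in the test came from all 8 arrays of the line. Fitted on the UNC0638 and GSK126 arrays alone, limma called 0. limma called 2 of the 10 enzymes lower with UNC0638, where 6.12% of all probes were called lower. With the 99th percentile, spike-ins, no scaling or cyclic loess it called 0. With quantile normalization, reference genes or level bins it called 1. Under these scalings 2.52% to 5.61% of all probes were called lower. GAPDH stood at 6.69 and 6.66 with UNC0638 and at 7.02 and 6.99 with GSK126, with no overlap, and differed by -0.34 ± 0.08, with a 95% interval from -0.52 to -0.15 and a limma adjusted p of 0.0415. ENO1 stood at 4.07 and 4.09 against 4.57 and 4.58, also with no overlap, and differed by -0.49 ± 0.09 (limma adjusted p = 0.0261). HK2 stood at 1.86 and 2.0 against 2.46 and 2.57, a difference of -0.58 ± 0.16 that did not pass (limma adjusted p = 0.0645). LDHA differed by -0.30 at its first probe (limma adjusted p = 0.236) and by -0.60 at the second (limma adjusted p = 0.0295). PGK1 differed by 0.08 (limma adjusted p = 0.537), and the other 5 by -0.68 to -0.15 with adjusted p-values between 0.173 and 0.306. For 9 enzymes both UNC0638 arrays lay below both GSK126 arrays, as for 34.4% of probes. The GAPDH call was lost when any of the 8 arrays was left out, with a limma adjusted p of 0.0519 to 0.168, and the ENO1 call when any GSK126 or UNC0638 array was, with 0.102 to 0.108.

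The enzymes varied together over the MM.1S arrays, except PFKP, and less evenly over the RPMI-8226 arrays. Over the 8 arrays of MM.1S each enzyme other than PFKP correlated with the mean of the remaining 9 at r between 0.828 for PGK1 and 0.987 for GAPDH, and PFKP at -0.07. Over the 8 RPMI-8226 arrays r ran from 0.420 for HK2, 0.523 for PFKP and 0.569 for PGAM1 to 0.965 for PGK1. These are descriptions over 8 arrays that share treatments and scaling. Outside the pathway lists, the 5 of 14714 genes whose centred levels followed the mean of the enzymes most closely over the 16 arrays were FHOD1 (r = 0.983), SLC38A5 (0.981), MYBL2 (0.980), HSPBP1 (0.978) and PHB (0.978). Their differences with the combination were -0.95, -1.70, -1.58, -1.13 and -1.13 in MM.1S and -0.42, -0.56, -0.48, -0.19 and -0.45 in RPMI-8226.

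Bright probes as a class were lower with the combination, which bears on members that are nearly all bright. Probes kept in each line were put in 20 bins of mean level. In the brightest bin of MM.1S, 1255 probes had a median difference of -0.51 with quartiles at -0.74 and -0.22, and 69.4% of them were called lower and 4.70% higher. In the brightest bin of RPMI-8226, the median over 1160 probes was -0.31 and 5.09% were called lower. Set against the median of its own bin, each RPMI-8226 enzyme lay within 0.29 of it, from -0.26 for GPI to 0.29 for ENO1. In MM.1S PGK1 lay 0.02 above its bin's median, PGAM1 was at -0.19 from it, GPI at -0.39 and GAPDH at -0.41. TPI1 was at -0.52, ALDOA at -0.68, ENO1 at -0.70, LDHA at -0.97 and HK2 at -1.05. Of the 10, HK2 was thus the farthest in log2 distance from its bin's median in MM.1S, and PGK1 the nearest. By the share of a bin's probes that were as low, LDHA came first, at 0.558%, then ALDOA at 2.71% and HK2 at 3.03%. With UNC0638 alone the brightest MM.1S bin was at -0.32 and with GSK126 alone at -0.18. For UNC0638 against GSK126 it was at -0.15, with GAPDH at -0.19 from it and ENO1 at -0.42 from the median of its own bin.

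**Figure D3:**
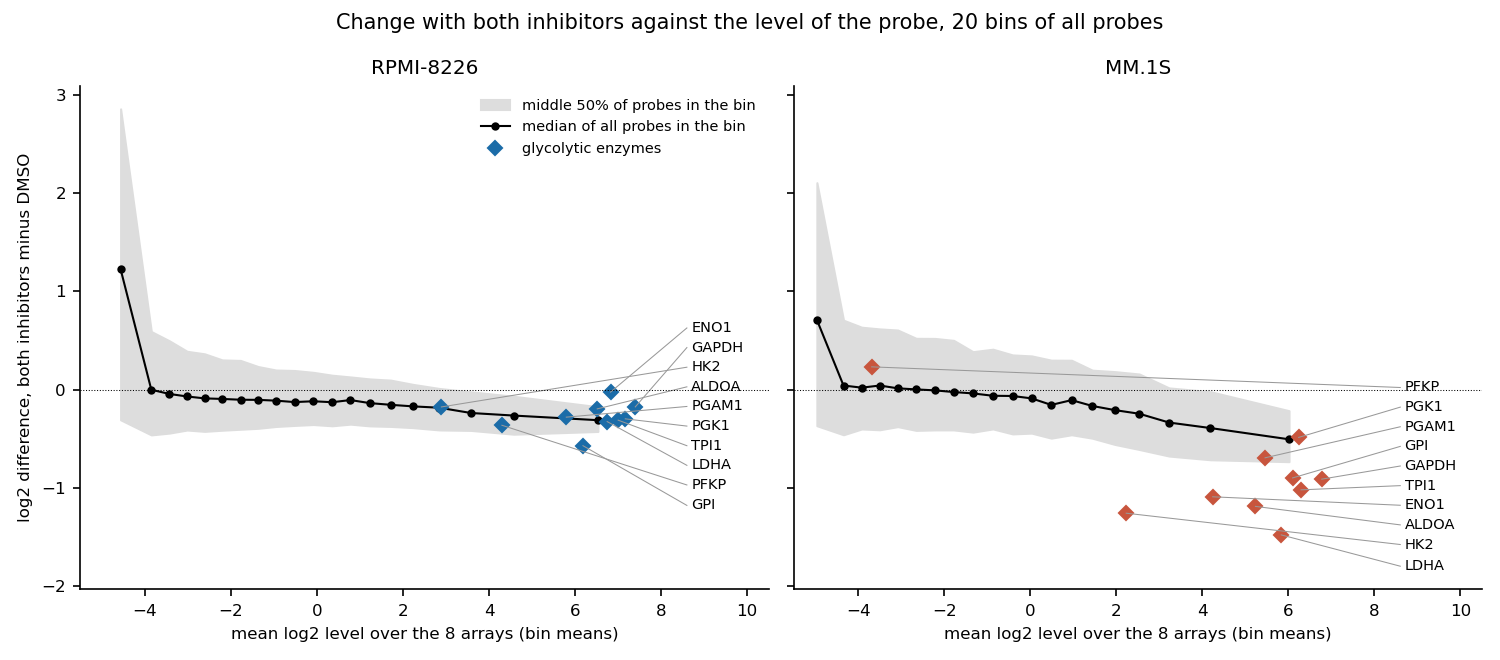
Log2 difference between both inhibitors and DMSO (vertical axis) against mean log2 level over the 8 arrays of a line (horizontal axis), with the median (black points) and middle 50% (grey) of all kept probes in 20 level bins and the enzymes as diamonds. The brightest MM.1S bin has a median of -0.51, and LDHA and HK2 lie -0.97 and -1.05 from the medians of their bins.

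The size of the MM.1S difference depended on what was held constant between arrays, and its direction did so for PGK1 and PGAM1. When arrays were matched at the 99th percentile, 7 of the 10 enzymes were called lower with the combination in MM.1S, where 9.49% of probes were called lower, and the members' median was -0.49 against 0.37 over all genes. Quantile normalization gave 7 lower (28.4% of probes) and a median of -0.52. Centring within level bins gave 7 (24.1% of probes) and -0.46, and cyclic loess 7 (20% of probes) and -0.43. Scaling to the spike-in spots gave 8 (14.4% of probes) and -0.70. Under these 5 scalings the other 8 lowered enzymes stayed below 0, while PGK1 turned to 0.02 with level bins and to 0.06 with cyclic loess. Nothing is read from these counts about the members, and the shares show how far each scaling moves all probes. Without scaling, or with the percentile taken over probes detected on all 16 arrays, 9 were called lower.

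Scaling to the median of 21 reference genes gave the smallest differences. In MM.1S the median level of these genes, relative to the 75th percentile, differed by -0.84 between the combination and DMSO, more than the median of their single differences, -0.50, and 17 of the 21 were called lower. With it, 3 enzymes were called lower and 2 higher, where 2.79% of probes were called lower and 70.5% higher, and the members' median was -0.12 against 0.73 over all genes. LDHA was then at -0.64, ALDOA at -0.35 and ENO1 at -0.25, the 3 called lower, while PGK1 turned to 0.36 and PGAM1 to 0.15. Besides the 75th percentile there were 8 scalings, the reference genes among them. LDHA, ALDOA and ENO1 were called lower under each of these 8. GAPDH, GPI, HK2 and TPI1 were called lower under 7, all but the reference genes, PGAM1 under 3 and PGK1 under 2. PFKP stayed above 0 under all 8 and was called higher, at 1.07, with the reference genes. As the choice used this contrast, these calls show only how the scalings differ, and nothing is read from them about the members. In RPMI-8226 no scaling led to a called enzyme, and the members' median lay between -0.37 with spike-ins and 0.01 with reference genes or level bins.

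**Figure D4:**
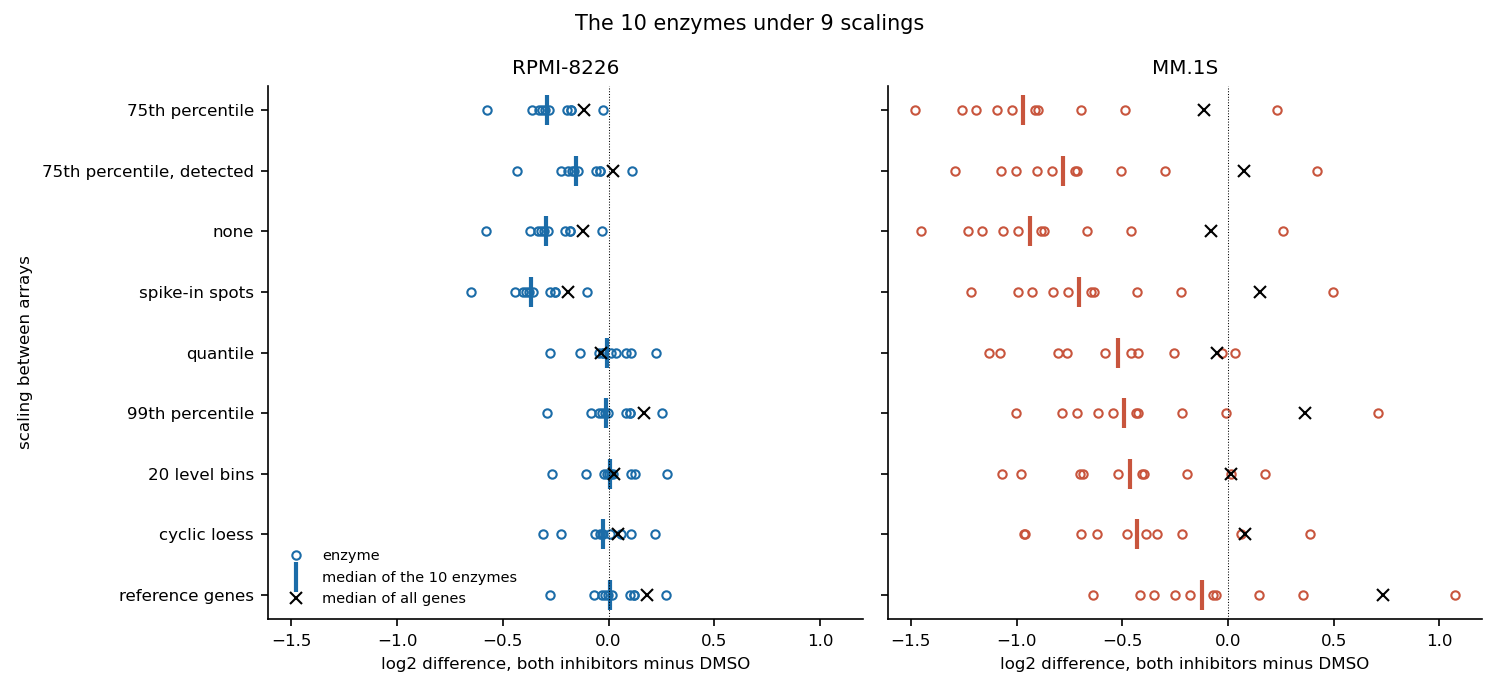
Log2 difference between both inhibitors and DMSO (horizontal axis) for the 10 enzymes (circles), their median (bar) and the median of all genes (cross) under 9 ways of scaling the arrays (vertical axis). In MM.1S the enzymes' median moves from -0.97 with the 75th percentile to -0.12 with reference genes, with the median of all genes to its right in every setting, while in RPMI-8226 the enzymes' median stays between -0.37 and 0.01.

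Spike-in control RNA gives levels that do not depend on the cells' own transcripts. The labels name no spike-in mix, and the control probes named E1A on the array are taken as spike-ins from that name. Of 10 such probes, with 35 spots each, 8 were well above background on all 16 arrays. Relative to the 75th percentile they stood at -0.42 to -0.17 with the combination in MM.1S, all below 0, and at -0.24 to 0.22 in RPMI-8226. The brightest, at 166200 to 210300 intensity units and above every member, stood at -0.22 in MM.1S and at -0.16 in RPMI-8226. Within the range of the bright enzymes, a probe at 35720 to 58190 stood at -0.24 in MM.1S and a probe at 31630 to 48210 at -0.42. The latter, the lowest of the spike-ins there, was close to PGK1 at -0.49, and the remaining 8 lowered enzymes lay below all spike-ins. In RPMI-8226 the enzymes ran from -0.57 to -0.03, so some lay below the lowest spike-in there, at -0.24.

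**Figure D5:**
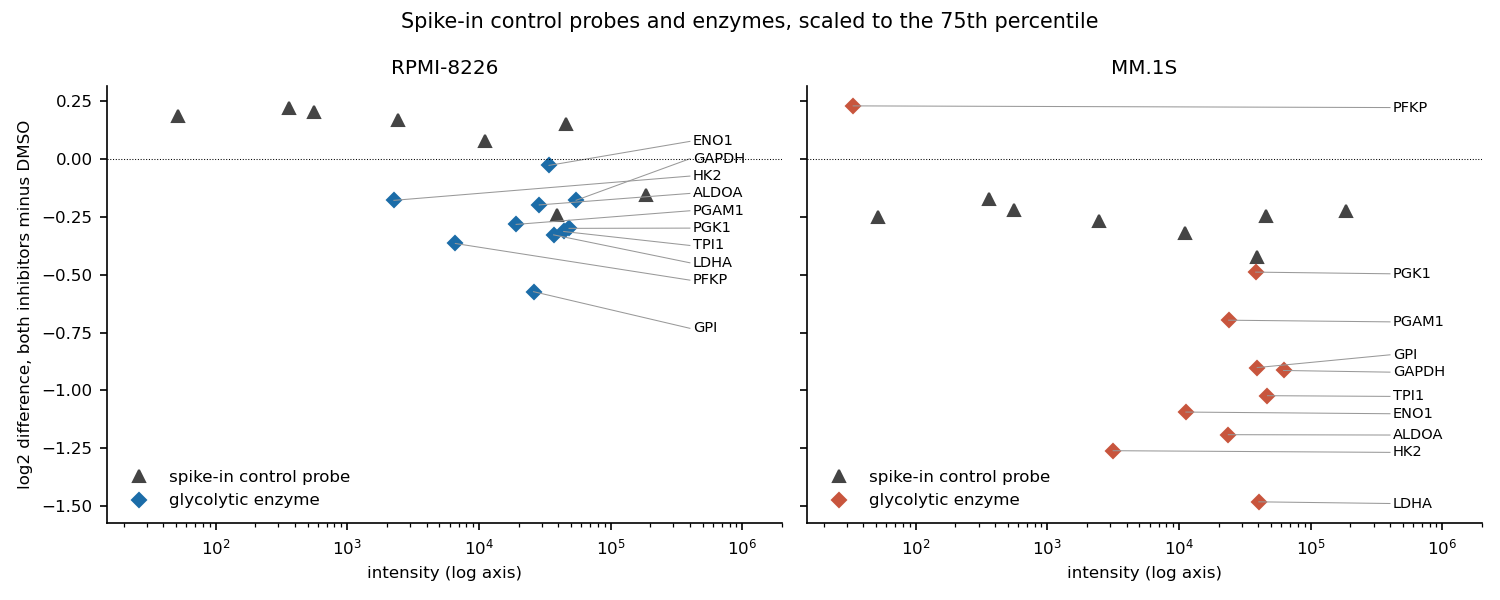
Log2 difference between both inhibitors and DMSO, scaled to the 75th percentile (vertical axis), against intensity on a log axis, for 8 spike-in control probes (triangles) and the 10 enzymes (diamonds, at their mean DMSO intensity). In MM.1S the spike-ins lie between -0.42 and -0.17 and 9 enzymes between -1.48 and -0.49. In RPMI-8226 the spike-ins lie between -0.24 and 0.22 and the enzymes between -0.57 and -0.03, so the ranges overlap in part.

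Neighbouring pathway genes were read from lists beside the members, as counts of genes called lower and higher with the combination. In MM.1S 31.5% of probes were called lower and 22.2% higher, and in RPMI-8226 5.45% and 7.10%. Other glycolytic isozymes and related enzymes, from genes outside the members, had 9 lower and 3 higher of 15 kept in MM.1S and 2 lower and 1 higher of 14 in RPMI-8226. In MM.1S PKM, the main pyruvate kinase gene, differed by -0.96, LDHB by -0.85 and ENO2, the neuronal-type enolase, by -1.10, and LDHC was at least 3.20-fold lower. In the same list and line LDHD, which oxidises D-lactate, was higher by 2.10. In RPMI-8226 PFKM (-0.57, limma adjusted p = 0.0483) and PGAM2 (-1.20, limma adjusted p = 0.0244) fell. The list's median was -0.47 in MM.1S and -0.20 in RPMI-8226, and with reference gene scaling, under which 70.5% of all probes were called higher, the MM.1S counts turned to 1 lower and 9 higher.

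Routes that branch from glycolysis differed in how many of their genes were called. The pentose phosphate pathway, which makes NADPH and ribose, had 6 lower and 0 higher of 7 in MM.1S, with transketolase TKT at -1.33 and RPIA at -0.98, and 0 called of 7 in RPMI-8226. Pyruvate dehydrogenase and citric acid cycle genes had 17 lower and 2 higher of 26 in MM.1S and 2 lower and 1 higher of 26 in RPMI-8226. PDK1, a kinase that restrains pyruvate dehydrogenase, differed by -1.05 in MM.1S and fell by 1.02 in RPMI-8226 (limma adjusted p = 0.0373), while the phosphatase PDP1, which releases that brake, was higher by 0.68 in MM.1S and rose by 1.08 in RPMI-8226 (limma adjusted p = 0.00728). SDHA, a subunit of succinate dehydrogenase, fell by 0.73 in RPMI-8226 (limma adjusted p = 0.0319), and fumarase FH was at -0.96 in MM.1S. Gluconeogenesis had 3 lower and 1 higher of 4 kept in MM.1S, with FBP1, fructose bisphosphatase, higher by 1.79 and PC, pyruvate carboxylase, at -0.98, and 0 called of 3 in RPMI-8226. With reference gene scaling the MM.1S counts were 1 lower and 2 higher for the pentose phosphate pathway, 0 and 17 for the citric acid cycle list and 0 and 1 for gluconeogenesis, where 70.5% of all probes were called higher and 2.79% lower, while with level bins they were 6 and 1, 11 and 6, and 3 and 1.

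Transport and control genes were split in direction. The list of glucose and lactate transport and control genes had 2 lower and 4 higher of 12 in MM.1S, with a median of 0.25, and 1 lower and 1 higher of 13 in RPMI-8226, with a median of 0.18. SLC16A1, the lactate carrier MCT1, was at -1.35 in MM.1S and fell by 0.87 in RPMI-8226 (limma adjusted p = 0.0199). SLC2A1, the glucose carrier GLUT1, was at -0.72 in MM.1S, and TXNIP, which removes glucose carriers from the membrane, was higher by 1.55. PFKFB2, which sets fructose 2,6-bisphosphate, rose by 1.61 in RPMI-8226 (limma adjusted p = 0.00773), and TIGAR, which breaks that compound down, was higher by 1.13 in MM.1S. With reference gene scaling 1 gene of the list was lower and 9 were higher in MM.1S.

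The hypoxia list outside glycolysis, holds genes that HIF1 is known to raise. With the combination it had 4 lower and 1 higher of 13 kept in MM.1S, with a median of -0.07, and 0 lower and 1 higher of 17 in RPMI-8226, with a median of -0.14, and 1 lower and 9 higher in MM.1S with reference gene scaling. With UNC0638 alone 7 of the 13 were called lower in MM.1S, with a median of -0.54, where 16.7% of probes were called lower, and against GSK126 UNC0638 had 3 lower. With the combination ANKRD37 was at -2.23, VEGFA at -1.15 and EGLN1 at 0.42 in MM.1S, and in RPMI-8226 PLOD2, not well above background with DMSO, was at least 21.5-fold higher (limma adjusted p = 0.000356). HIF1A itself was at -0.10 in MM.1S, where its sign turned under 5 of 8 other scalings, and rose by 0.80 in RPMI-8226 (limma adjusted p = 0.0194). MYC was at -1.71 in MM.1S, called lower under all 9 scalings, and at -0.61 in RPMI-8226 (limma adjusted p = 0.0761). Between UNC0638 and GSK126 in MM.1S, MYC fell by 0.93 (limma adjusted p = 0.00936). In the list of factors that control glycolysis, 5 were called lower and 1 higher of 8 in MM.1S and 1 lower and 1 higher of 8 in RPMI-8226, with KLF2 at -1.83 and EPAS1 higher by 0.97 in MM.1S and IRF4 falling by 1.72 in RPMI-8226 (limma adjusted p = 0.00303). These moved in the same arrays as the enzymes, and their part in the enzymes' levels was not tested.

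Other common reference transcripts lay on different sides of 0. ACTB, cytoskeletal actin, was at -0.25 in MM.1S and at -0.11 in RPMI-8226 (limma adjusted p = 0.615), and in each line its sign turned under 6 of the 8 other scalings. B2M, the light chain of class I antigens, was higher by 0.72 in MM.1S and higher under every other scaling, and was at 0.39 in RPMI-8226 (limma adjusted p = 0.160). TFRC, also in the reference list, was at -1.27 in MM.1S, and no reference gene was called in RPMI-8226.

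Plasma cell markers were measured in both lines, 8 of 9, with only CD27 not kept. With the combination 8 were called lower in MM.1S, with a median of -0.65, where 31.5% of all probes were called lower. The markers' summed intensity there was 158000 to 164000 against 234000 to 236000 with DMSO. In RPMI-8226 3 were called lower and 1 higher, where 5.45% of all probes were called lower and 7.10% higher. The sum there was 51800 to 64000 against 86600 to 88200. Of 7 markers of other blood cells, 3 were kept in each line, and PAX5, GATA1 and ELANE were among those not kept. CD3E and MS4A1, not well above background with DMSO in either line, were at least 4.67-fold and 2.75-fold higher with the combination in MM.1S and at least 6.24-fold and 15.8-fold higher in RPMI-8226, and CD14 rose by 2.65 in RPMI-8226 (limma adjusted p = 0.00214) and was at -0.03 in MM.1S. The 7 summed to 196 to 212 intensity units with the combination against 91.8 to 98.4 with DMSO in MM.1S, and to 1180 to 1250 against 144 to 166 in RPMI-8226. The part of these markers in the enzymes' values was not tested.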

How the data were processed

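Total RNA of 16 cultures was labelled with Cy3 and hybridised by the authors to one-colour SurePrint G3 Human GE v2 arrays. The deposited intensity values came from Agilent Feature Extraction 10.7, which corrected the background. The study used Gene Spring GX and counted probe sets that changed more than 2-fold. Any detection filter or test of single probes that it applied is not given in the sources used here. Here control and outlier spots were left out, log2 of the processed intensity minus each array's 75th percentile was taken, spots of a probe were averaged, and limma 3.58.1 in R 4.3.3 fitted the 8 arrays of a line, with Benjamini-Hochberg adjustment over all kept probes and a threshold of 0.05. A difference is the mean of 2 arrays minus the mean of 2 others, so the number of arrays limits the precision. Where a group was not well above background, a fold is a lower bound against the lowest signal well above background. Probe positions are those of the array design (GRCh37), and upstream windows come from RefSeq (GRCh38.p14). The members and lists were chosen with earlier results of these data known. All members were named, and from each list the called genes with the widest differences, some of which are not reported here. Same-numbered arrays deviated together in RPMI-8226, with r from 0.254 to 0.415 over 6 pairs of groups. The pairing there rests on these correlations, since the labels give only a number. The replicate number and the slide row cannot be told apart in either line, nor can the treatment and the slide column. Alternatives changed the scaling, background correction, filter, probes, samples, replicate block and prior variance. The steps were tested on simulated data.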

Additional observations from a re-analysis of the deposited data

Results flagged for a closer look

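The response to an inhibitor was compared between the lines, as MM.1S minus RPMI-8226 on the log2 scale, and limma's test of that difference passed for 6 values of the enzymes. With the combination the difference was -0.74 for GAPDH, -1.08 for HK2, -0.99 for ALDOA, -1.07 for ENO1 and -1.15 for LDHA, where 13.1% of 26928 probes passed. With UNC0638 alone it was -1.14 for HK2, where 2.85% of probes passed. The combination values contain the whole MM.1S contrast on which the enzymes were chosen, and the UNC0638 value shares its DMSO arrays. All 6 values are therefore given as a description. Over 26 alternatives none turned in sign, and the test still passed in 24 for ENO1, 19 for HK2, 17 for LDHA, 12 for GAPDH and 7 for ALDOA with the combination, and in 14 for HK2 with UNC0638. The GAPDH difference lay between -0.83 and -0.19 over these alternatives. Nothing is read from the counts of passing tests about the enzymes. The line and the slide cannot be told apart.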

How the results depend on the processing

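Each of the 9 comparisons was repeated under 25 alternatives. Counts of called enzymes that moved by over 1.5 times follow, beside those of the report. For the combination against DMSO in MM.1S (9) the count was 5 with reference gene scaling (3 lower, 2 higher), and 7 to 9 otherwise. For UNC0638 against DMSO in MM.1S (8) it was 3 with quantile normalization (12% of all probes called lower) or cyclic loess (8.71%). It was 2 with the 99th percentile (3.86%) or level bins (10.8%), and 1 with spike-ins (3.21%). With reference genes it was 1, called higher, where 54% of all probes were called higher. It was 5 without scaling (8.2% of probes lower) or without a filter (3.46%). For GSK126 against DMSO in MM.1S (0) it was 2 with reference genes, both higher, where 44.5% of all probes were called higher. It was, all lower, 1 with normexp (4.95% of probes lower) and 5 with an intensity-dependent prior variance. For UNC0638 against GSK126 in MM.1S (2) it was 1 with quantile normalization, reference genes or level bins and 0 with the 99th percentile, spike-ins, no scaling, cyclic loess, no filter, only the groups compared or 1 fit over all 16 arrays. In RPMI-8226 (0) it was 1 for the combination against DMSO with normexp, 1 fit over all 16 arrays or the intensity-dependent prior, and 1 against GSK126 with the last pair of settings. The enzymes' median moved for the combination in MM.1S (-0.97) to -0.52 with quantile normalization, -0.78 with the percentile over detected probes, -0.49 with the 99th percentile, -0.12 with reference genes, -0.70 with spike-ins, -0.46 with level bins and -0.43 with cyclic loess. In the same order it moved for UNC0638 (-0.52) to -0.27, -0.42, -0.20, 0.011, -0.27, -0.25 and -0.27, and to -0.42 without scaling. For GSK126 (-0.25) it was -0.070 with quantile normalization, -0.067 with level bins, -0.065 with cyclic loess, -0.078 with the 99th percentile and 0.19 with reference genes. For the combination in RPMI-8226 (-0.29) it was -0.0067 with quantile normalization, -0.0097 with the 99th percentile, 0.0067 with reference genes, 0.0074 with level bins and -0.028 with cyclic loess. In MM.1S called values turned for PGK1 with the combination (0.36 with reference genes, 0.016 with level bins, 0.062 with cyclic loess), for PGAM1 (0.15 with reference genes) and, with UNC0638 and reference genes, for GAPDH (0.037), GPI (0.072) and PGAM1 (0.16). The cause of these moves was not tested.

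Leaving out each array in turn gave 0 to 0 called enzymes in all 5 RPMI-8226 comparisons, 9 to 9 for the combination in MM.1S, 0 to 0 for GSK126, 3 to 8 for UNC0638 (4 without DMSO replicate 1) and 0 to 1 for UNC0638 against GSK126. The medians ran from -0.39 to -0.09, from -0.05 to 0.22 and from -0.19 to 0.13 for the combination, GSK126 and UNC0638 in RPMI-8226, and from -1.02 to -0.88, -0.27 to -0.23 and -0.57 to -0.51 in MM.1S. With the replicate number as a block the count of called enzymes stayed 0 in each RPMI-8226 comparison, while the share of all probes called lower with the combination rose from 5.45% to 10.8%, and the shares called in either direction rose to 2.12% for GSK126, 1.79% for UNC0638, 5.39% for the combination against GSK126 and 6.65% against UNC0638. In MM.1S same-numbered arrays correlated at 0.085 to 0.225, and 5 of 6 pairs of groups passed 0.1. Whether the numbers pair the arrays there is not settled. With the block, limma called 3 enzymes for UNC0638 against GSK126 in MM.1S in place of 2. The number of arrays, and for PFKP in MM.1S a signal near background, limit what these comparisons can resolve.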
